A study of Mus musculus with 10 samples.

Results

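A list of 10 genes of the INK4 locus and the p53 pathway was followed in RNA-Seq libraries of mouse embryonic stem cells (mESCs): Cdkn2a, Cdkn2b, Cdkn1a, Trp53, Mdm2, Ccng1, Trp53inp1, Bbc3, Phlda3 and Zmat3. The genes were chosen by name with earlier results of these data known, and Cdkn2a was selected because it was higher after wild-type H3.3 was put back. All 10 were among the 20325 genes of the table. PolyA RNA was sequenced from 5 lines with 2 libraries each, all grown without feeders in 2i + LIF medium, which holds the kinase inhibitors CHIR99021 and PD0325901. The Daxx-/- line of strain 129/SvEv lacks the histone chaperone DAXX, and Daxx-/- + WT is that line with a wild-type Daxx transgene. The H3.3 KO line of strain 129 x C57BL/6J lacks the replacement histone H3.3, H3.3 KO + WT carries a wild-type H3.3 transgene, and H3.3 KO + L126A-L130A (spelled as in the labels) carries H3.3 with changes at its contact with the other H3 of the nucleosome, designed to keep DAXX binding but not to be stably deposited. Transgenes were delivered by lentivirus under the EF1 promoter and held with puromycin at a dose that differed between the Daxx and H3.3 constructs, so rescued lines differ from their parents in virus and selection too. Every comparison of a Daxx line with an H3.3 line also compares strains and separately derived cells, and genotype, strain and origin cannot be told apart there.

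The Cdkn2a gene makes p16INK4A, which blocks the kinases CDK4 and CDK6, and, from another start site and reading frame, p19ARF, which binds MDM2 and so frees p53. Its neighbour Cdkn2b makes p15INK4B, a related CDK4 and CDK6 inhibitor. p53, made by Trp53, activates genes that stop the cell cycle, promote cell death or feed back on p53 itself. The INK4 locus is held at a low level in pluripotent cells, in part by Polycomb complexes.

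The start regions of the INK4 genes and of Cdkn1a are shown because one gene count adds the products of separate starts. They were read from the RefSeq promoter table of GRCm38.p6, which held 12 windows for 8 of the 10 genes, and are printed 5′ to 3′ on the strand of the gene, up to the first annotated exon base. Capitals mark GC boxes (GGGCGG, either strand) and matches to the p53 half-site, searched on both strands, and the motifs do not overlap in these windows. The Cdkn2a windows are those of the ARF start at chr4:89294654-89294869, minus strand, before the first exon of the gene, and of the INK4A start at chr4:89282193-89282442, inside the first intron of the longer transcript. The Cdkn2b window is chr4:89311040-89311282, minus strand, before its first exon. The Cdkn1a windows are chr17:29090729-29090975, plus strand, before the gene, and chr17:29093519-29093768, in an intron before the inner start.
Cdkn2a, ARF start: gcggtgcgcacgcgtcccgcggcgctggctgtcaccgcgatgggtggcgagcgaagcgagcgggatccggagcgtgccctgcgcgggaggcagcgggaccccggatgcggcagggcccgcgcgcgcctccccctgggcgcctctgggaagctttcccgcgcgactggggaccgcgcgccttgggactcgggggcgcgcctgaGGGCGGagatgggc
Cdkn2a, INK4A start: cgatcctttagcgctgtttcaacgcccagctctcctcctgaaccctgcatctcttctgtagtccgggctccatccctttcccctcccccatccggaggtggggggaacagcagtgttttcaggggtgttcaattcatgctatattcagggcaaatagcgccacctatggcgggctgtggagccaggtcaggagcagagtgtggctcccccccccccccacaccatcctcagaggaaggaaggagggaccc
Cdkn2b: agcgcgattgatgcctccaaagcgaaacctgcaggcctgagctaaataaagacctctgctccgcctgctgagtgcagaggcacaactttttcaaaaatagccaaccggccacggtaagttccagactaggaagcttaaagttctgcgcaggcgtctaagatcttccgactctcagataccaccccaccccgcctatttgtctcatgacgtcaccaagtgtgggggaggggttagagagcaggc
Cdkn1a, outer start: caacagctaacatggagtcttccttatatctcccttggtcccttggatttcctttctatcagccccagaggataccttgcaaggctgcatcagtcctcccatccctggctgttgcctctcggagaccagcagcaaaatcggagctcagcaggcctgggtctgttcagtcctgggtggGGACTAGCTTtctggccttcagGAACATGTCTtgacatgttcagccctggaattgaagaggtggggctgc
Cdkn1a, inner start: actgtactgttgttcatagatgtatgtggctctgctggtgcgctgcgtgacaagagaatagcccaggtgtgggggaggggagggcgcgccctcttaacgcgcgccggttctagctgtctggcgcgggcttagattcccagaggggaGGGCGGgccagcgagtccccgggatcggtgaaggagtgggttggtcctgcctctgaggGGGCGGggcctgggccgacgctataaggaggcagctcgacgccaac

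In the 250 bases before each RefSeq start, CG dinucleotides numbered 40 at the ARF start, 7 at the INK4A start and 12 at Cdkn2b, against a median of 6 over 32851 promoter windows. The outer Cdkn1a start had 2 half-site matches, beginning 73 and 51 bases before the start, and 1 each stood before Ccng1, Mdm2 and Trp53. Of all windows of this length, 7.13% held such a match and 32.7% a GC box, and a match is a description of letters only. By the GENCODE annotation of GRCm38, the INK4A and ARF transcripts of Cdkn2a (Cdkn2a-201 and Cdkn2a-202) share 575 exon bases and differ in 277 and 320 bases, so the Cdkn2a count mixes both. The genes Cdkn2a and Cdkn2b lie 11645 bases apart on the same strand. Of the 10 genes, Cdkn1a shared exon bases with another annotated gene, an uncharacterised transcript on the opposite strand that has no row in the table, and the other 9 overlapped none.

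Library totals lay between 15463625 and 21396585 expected counts. Daxx was at 77.7 ± 6.85 normalised CPM, the unit of library-scaled counts used throughout, in Daxx-/- mESCs and 206 ± 0.199 with the transgene (mean ± SD, n = 2), so transcript remained in the knockout line, and H3f3a lay at 10.9 CPM or below in every H3.3 library. H3f3b, the other H3.3 gene, was at 614 ± 149 CPM in H3.3 KO mESCs, so its transcript too was present in the knockout. All 10 stem cell markers passed the filter on low values, with a summed level of 6200 to 9069 CPM, while the fibroblast, primitive endoderm, trophoblast and neural markers summed to at most 57.4, 217, 34.5 and 11.5 CPM. The 2 Daxx-/- libraries differed most, by a median of 0.36 on the log2 scale per gene against 0.16 to 0.27 in the other lines. The study calls the 2 libraries of a line biological replicates, and whether they came from separate cultures is not stated in the labels, so p-values measure the spread between these libraries.

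Cdkn2a fell into 5 separate levels. It was measured at 46.6 and 58.5 CPM in Daxx-/- mESCs, 31.2 and 33.4 in Daxx-/- + WT, 4.70 and 6.39 in H3.3 KO, 17.6 and 16.6 in H3.3 KO + WT, and 8.42 and 9.63 in H3.3 KO + L126A-L130A. No 2 lines overlapped, and each step in the order Daxx-/-, Daxx-/- + WT, H3.3 KO + WT, H3.3 KO + L126A-L130A and H3.3 KO was larger than the pooled SD of the neighbouring lines. The mean in Daxx-/- mESCs was 9.48 times that in H3.3 KO mESCs. With wild-type H3.3 the mean was 3.08 times the H3.3 KO level (log2 fold change 1.62 ± 0.21, SE), and with the L126A-L130A protein 1.63 times (0.71 ± 0.21). With the mutant the level was 0.528 times that with wild-type H3.3 (−0.92 ± 0.21). These H3.3 values are a description with no test, since the gene was chosen on the first of them. With DAXX put back into Daxx-/- mESCs the mean was 0.615 times the knockout level (−0.70 ± 0.20), which did not pass the threshold (adjusted p = 0.102, edgeR quasi-likelihood test with Benjamini-Hochberg adjustment over 13201 genes). It passed in 3 of 18 alternatives, by DESeq2 (adjusted p = 0.0286), with the replicate block (adjusted p = 0.0354) and without Daxx-/- replicate 1 (adjusted p = 0.0404), and over all 18 the adjusted p reached 0.518.

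Cdkn2b followed the same order of lines at a low level. Its values were 7.37 and 12.7 CPM in Daxx-/-, 4.11 and 5.44 in Daxx-/- + WT, 1.53 and 0.931 in H3.3 KO, 3.17 and 3.60 in H3.3 KO + WT, and 2.49 and 2.19 in H3.3 KO + L126A-L130A. The 5 lines again did not overlap, but the H3.3 KO values rest on 27 and 15 expected counts. The log2 fold change was −1.07 ± 0.38 with DAXX (adjusted p = 0.154), 1.45 ± 0.41 with wild-type H3.3 (adjusted p = 0.204) and 0.92 ± 0.41 with the mutant (adjusted p = 0.303), none of which passed. Cdkn2b was lower in H3.3 KO than in Daxx-/- mESCs by a factor of 8.09 in the fit (−3.02 ± 0.42, adjusted p = 0.0023). Across the 10 libraries the log2(CPM + 1) values of Cdkn2a and Cdkn2b had a Pearson correlation of 0.95, given as a description, since the libraries of a line share their cells.

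**Figure D1:**
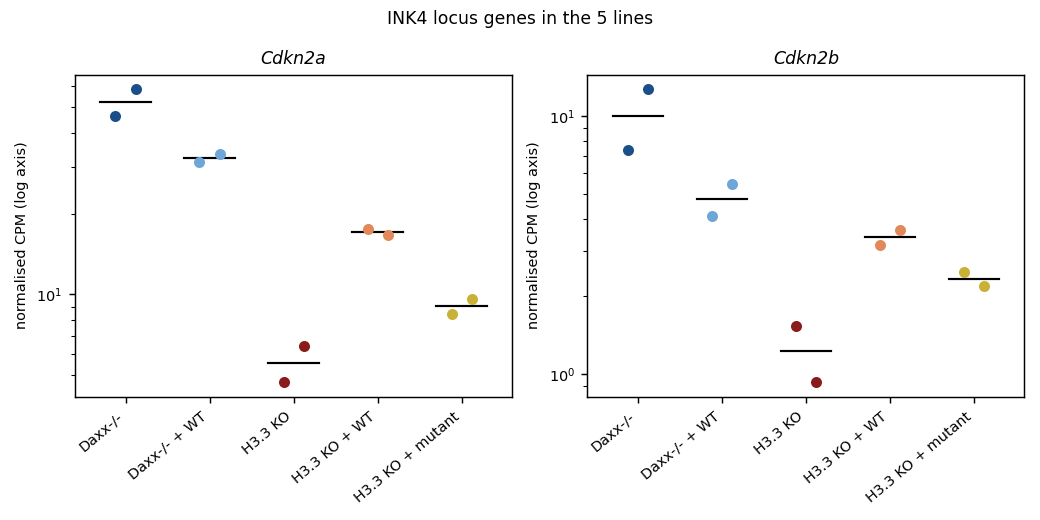
Normalised CPM of Cdkn2a and Cdkn2b on a log axis in the 5 lines, with a point for each library and a bar at the mean of 2. Both genes were highest in Daxx-/- mESCs and lowest in H3.3 KO mESCs, and the libraries of neighbouring lines did not overlap.

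Mtap, a metabolic enzyme gene next to Cdkn2a, passed in no comparison and lay between 86.1 and 141 CPM, with a log2 fold change of −0.44 ± 0.17 with DAXX put back (adjusted p = 0.180), both rescued libraries being lower, and −0.17 ± 0.17 between the knockout lines. Dmrta1, the neighbour of Cdkn2b, was at 0.232 CPM or below and was not tested. Of the 15 listed regulators of the locus, such as Polycomb subunits, none was called in the DAXX, wild-type H3.3 or mutant comparison by edgeR, DESeq2 or limma, with 5, 4 and 4 at an unadjusted p under 0.05 in edgeR against 21.8%, 13.3% and 16.9% of all genes. Tbx3, a repressor of the locus, was the only one called between the knockout lines (1.15 ± 0.20, adjusted p = 0.0048, higher in H3.3 KO), against 11.7% of all genes.

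Trp53 itself differed little between line means, which spanned 1.47-fold, while its single libraries spanned 2.46-fold. It was measured at 311 and 162 CPM in Daxx-/-, 292 and 233 in Daxx-/- + WT, 299 and 399 in H3.3 KO, 289 and 278 in H3.3 KO + WT, and 295 and 224 in H3.3 KO + L126A-L130A. The libraries of Daxx-/- mESCs differed 1.92-fold from each other, replicate 2 being the lowest of all 10. Trp53 passed in no comparison, and its change between the knockout lines was 0.56 ± 0.29 (adjusted p = 0.190). Trp53 correlated negatively with each of the other 9 genes over the libraries, from −0.73 with Trp53inp1 to −0.34 with Mdm2.

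Mdm2, the ubiquitin ligase that is both a p53 target and its main inhibitor, also stayed in a narrow range. Its values were 182 and 220 CPM in Daxx-/-, 189 and 145 in Daxx-/- + WT, 138 and 166 in H3.3 KO, 171 and 204 in H3.3 KO + WT, and 162 and 159 in H3.3 KO + L126A-L130A. The line means spanned 1.32-fold, and every pair of neighbours in their order overlapped. Some lines further apart in that order did not overlap. Both H3.3 KO libraries lay below both Daxx-/- and both H3.3 KO + WT libraries, and both mutant libraries lay below both H3.3 KO + WT libraries. Mdm2 passed in none of these comparisons.

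Cdkn1a, which makes the CDK inhibitor p21 and whose start region holds the half-site matches printed above, was high in 1 line. It was measured at 248 and 350 CPM in Daxx-/-, 102 and 151 in Daxx-/- + WT, 77.5 and 75.3 in H3.3 KO, 73.9 and 90.2 in H3.3 KO + WT, and 66.5 and 96.4 in H3.3 KO + L126A-L130A. Both Daxx-/- libraries lay above the other 8, and the 3 H3.3 lines overlapped one another. With DAXX put back the level was 0.423 times the knockout mean (−1.24 ± 0.25), just outside the threshold (adjusted p = 0.0527). It passed in 5 of 8 other settings, DESeq2 included (adjusted p = 0.000294), over which adjusted p ranged from 0.000294 to 0.224, and in 3 of the 10 fits that left out 1 library. Those fits gave values from −1.56 to −0.98, with an adjusted p of 0.0208 without Daxx-/- replicate 1, 0.146 without Daxx-/- replicate 2 and 0.391 without Daxx-/- + WT replicate 1. Neither H3.3 protein was followed by a comparable value, with log2 fold changes of 0.10 ± 0.25 for wild type and 0.09 ± 0.25 for the mutant. The difference between the DAXX and wild-type H3.3 changes, −1.35 ± 0.36, did not pass (adjusted p = 0.210). Cdkn1a was lower in H3.3 KO than in Daxx-/- mESCs (−1.97 ± 0.26, adjusted p = 0.0020).

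Bbc3, encoding the cell death activator PUMA, had the same highest line. Its values were 30.8 and 54.6 CPM in Daxx-/-, 28.0 and 25.1 in Daxx-/- + WT, 12.6 and 15.6 in H3.3 KO, 16.6 and 25.2 in H3.3 KO + WT, and 14.6 and 21.5 in H3.3 KO + L126A-L130A. The lower Daxx-/- library was close to the rescued ones, and the H3.3 lines with a transgene overlapped. Bbc3 was lower in H3.3 KO than in Daxx-/- mESCs (−1.59 ± 0.33, adjusted p = 0.0104), a call that was lost without either H3.3 KO library (adjusted p = 0.0773 without replicate 1 and 0.0548 without replicate 2).

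Phlda3, an inhibitor of AKT signalling, was higher in both Daxx lines than in the 3 H3.3 lines. It was measured at 120 and 119 CPM in Daxx-/-, 128 and 97.3 in Daxx-/- + WT, 37.2 and 56.0 in H3.3 KO, 74.6 and 87.0 in H3.3 KO + WT, and 54.4 and 60.2 in H3.3 KO + L126A-L130A. All 4 Daxx-line libraries lay above all 6 H3.3-line libraries, and the H3.3 KO + WT libraries stood above the other 4 of those 6. Phlda3 was lower in H3.3 KO than in Daxx-/- mESCs (−1.36 ± 0.21, adjusted p = 0.0036), and its change with wild-type H3.3, 0.79 ± 0.21, did not pass (adjusted p = 0.183, and 0.0328 by DESeq2).

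Zmat3, an RNA-binding p53 target, showed the same division. Its values were 160 and 182 CPM in Daxx-/-, 174 and 150 in Daxx-/- + WT, 94.3 and 92.0 in H3.3 KO, 99.5 and 117 in H3.3 KO + WT, and 92.6 and 103 in H3.3 KO + L126A-L130A. The Daxx-line libraries all exceeded the H3.3-line libraries. The difference passed the adjusted p but not the 2-fold limit between the knockout lines (−0.88 ± 0.14, adjusted p = 0.0043) and between the rescued lines (−0.58 ± 0.14, adjusted p = 0.0255). The second was lost without any 1 of the 4 rescued libraries compared (adjusted p from 0.0506 to 0.179).

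Trp53inp1 and Ccng1, which make a stress-induced regulator of p53 and cyclin G1, followed replicate 2 of the Daxx-/- line. Trp53inp1 was measured at 315 and 582 CPM in Daxx-/-, 319 and 296 in Daxx-/- + WT, 225 and 252 in H3.3 KO, 349 and 318 in H3.3 KO + WT, and 257 and 277 in H3.3 KO + L126A-L130A. Ccng1 was measured at 439 and 650 CPM in Daxx-/-, 500 and 449 in Daxx-/- + WT, 414 and 419 in H3.3 KO, 431 and 393 in H3.3 KO + WT, and 310 and 301 in H3.3 KO + L126A-L130A. For both genes Daxx-/- replicate 2 was the highest of the 10 libraries, and replicate 1 lay at or below the higher Daxx-/- + WT library. Trp53inp1 passed the adjusted p between the knockout lines (−0.91 ± 0.24, adjusted p = 0.0277) and not without Daxx-/- replicate 2 (−0.40, adjusted p = 0.0832), without H3.3 KO replicate 1 (−0.83, adjusted p = 0.143), without H3.3 KO replicate 2 (−0.99, adjusted p = 0.106) or with the 2 lines fitted alone (−0.93, adjusted p = 0.103). Ccng1 was lowest with the mutant H3.3, below the other 8 libraries, at −0.43 ± 0.18 against wild-type H3.3 (adjusted p = 0.369).

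**Figure D2:**
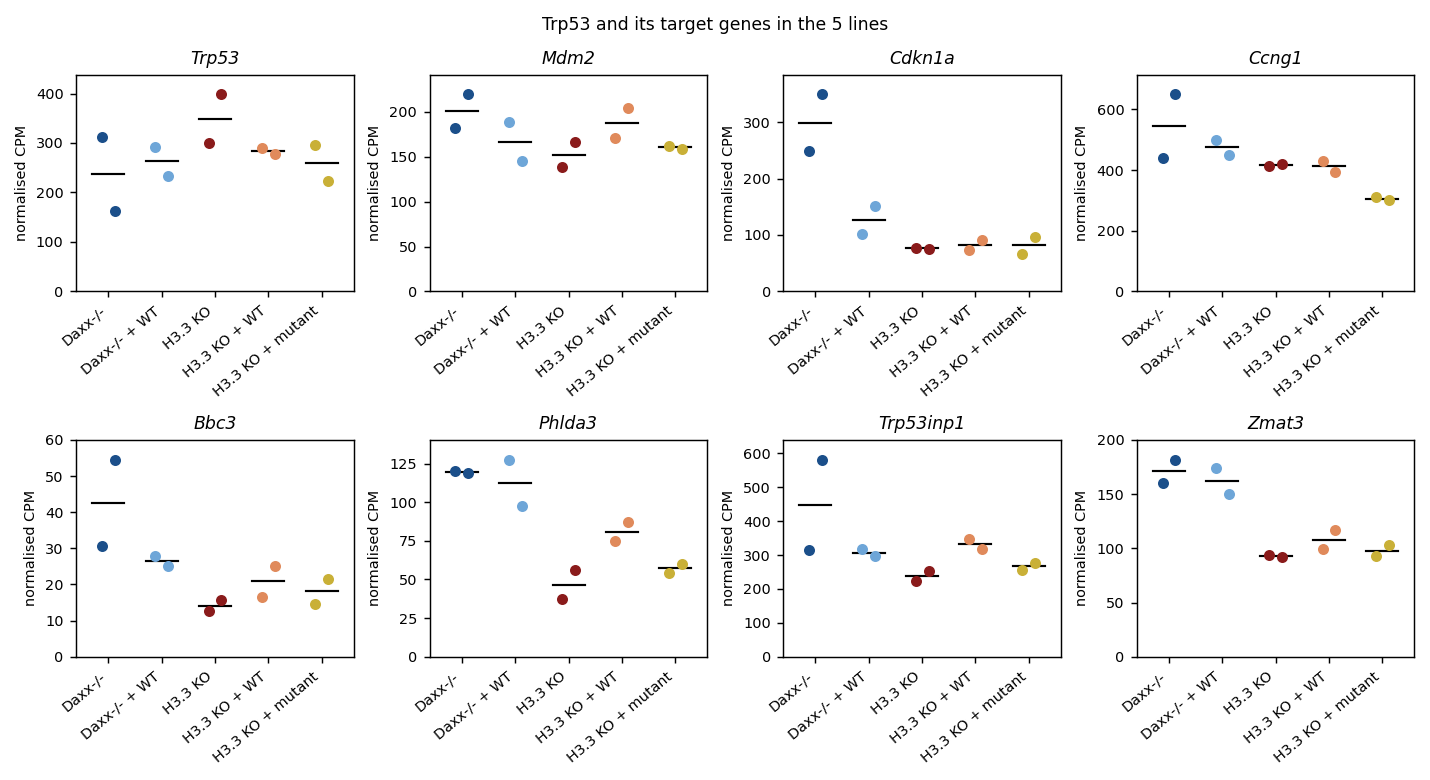
Normalised CPM of Trp53 and 7 p53 target genes in the 5 lines on linear axes from 0, with a point for each library and a bar at the mean of 2. Cdkn1a was high in both Daxx-/- libraries, Phlda3 and Zmat3 were higher in both Daxx lines than in the H3.3 lines, and Trp53inp1 and Ccng1 had their highest value in 1 Daxx-/- library.

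Read by comparison, putting DAXX back called none of the 10 genes, where called means an adjusted p under 0.05 and at least a 2-fold change, against 1.08% of all genes tested, and none passed the adjusted p alone, against 1.41%. At an unadjusted p under 0.05, 3 of the 10 (Cdkn2a, Cdkn2b and Cdkn1a) were lower, against 21.8% of all genes in either direction and 12.4% lower. DESeq2 and the 2 limma fits each called 1, Cdkn1a, when they called 531, 240 and 189 of all genes. Both rescued libraries lay below both knockout libraries for 4 of the 10, against 24.7% of genes. Without Daxx-/- replicate 1, 2 genes were called (Cdkn2b and Cdkn1a), when 8.17% of the genes tested were called. Without replicate 2 none was called.

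Wild-type H3.3 called none of the 9 genes other than Cdkn2a, against 0.25% of all genes. At an unadjusted p under 0.05, 2 of 9 (Cdkn2b and Phlda3) were higher, against 13.3% of all genes in either direction and 731 of 13201 higher. Both H3.3 KO + WT libraries lay above both H3.3 KO libraries for 6 of these 9 genes, against 29.3% of genes tested. The mutant H3.3 called none of 9 against 0.788%, with 1 (Ccng1) at an unadjusted p under 0.05 against 16.9%. Mutant against wild-type H3.3 called none of 9 against 0.515%, with 2 (Ccng1 and Phlda3) at an unadjusted p under 0.05 against 12.3%. All 9 log2 fold changes were below 0, against 49.6% of all genes. Those of Cdkn1a, Trp53 and Bbc3 changed sign in fits that left out 1 library. In none of these 3 H3.3 comparisons did DESeq2 or limma call a gene among the 9. The comparisons share libraries, so their values stand side by side and are not independent.

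Between the knockout lines 4 of the 9 genes were called, all lower in H3.3 KO mESCs (Cdkn2b, Cdkn1a, Bbc3 and Phlda3), against 11.7% of genes called in either direction and 5.98% called lower. A further 2 (Trp53inp1 and Zmat3) passed the adjusted p alone, making 6 of 9 against 23.7%. Cdkn2a had the largest difference of the 10, −3.24 ± 0.22, given with no test. The libraries of the 2 lines did not overlap for 8 of these 9 genes, all lower in H3.3 KO, against 29.3%. Between the rescued lines none of the 9 was called, against 8.45%, and DESeq2 and limma called none. Zmat3 passed the adjusted p alone (17.7% of genes did), and 3 of 9 (Cdkn1a, Phlda3 and Zmat3) had an unadjusted p under 0.05, against 34.5%.

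The step from the knockout to the rescued comparison is also the difference between the DAXX and the wild-type H3.3 change. None of the 9 genes was called for that difference, against 0.0455% of genes. At an unadjusted p under 0.05, 5 (Cdkn2b, Cdkn1a, Trp53inp1, Bbc3 and Phlda3) were lower, against 13.9% of all genes in either direction and 1007 of 13201 lower. For the difference of the DAXX and the mutant H3.3 change none was called, against 0.0227%, and 3 (Cdkn2b, Cdkn1a and Bbc3) had an unadjusted p under 0.05, against 11.2%. DESeq2 called 2 in the first (Cdkn2b and Cdkn1a) and 1 in the second (Cdkn1a), when it called 262 and 164 of all genes. By limma none was called. For Cdkn2a the gap between the DAXX and H3.3 lines was −3.24 before rescue and −0.92 after it.

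**Figure D3:**
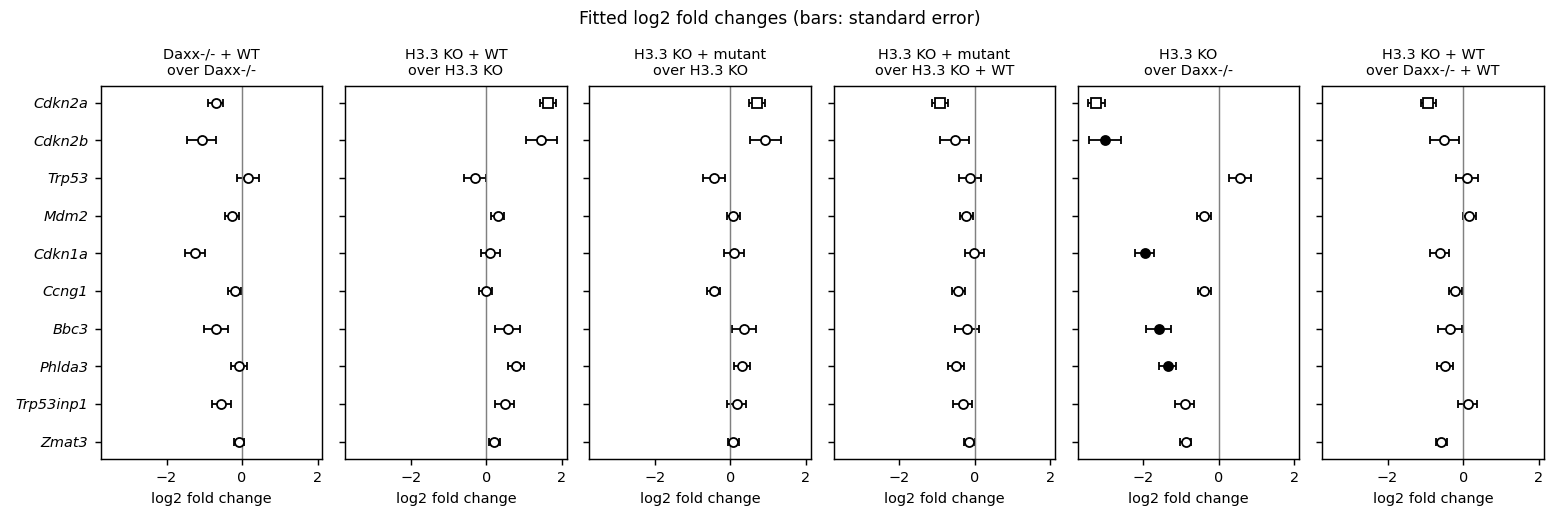
Fitted log2 fold changes of the 10 genes in 6 comparisons, with bars of 1 standard error. Filled circles passed an adjusted p under 0.05 and 2-fold, open circles did not, and squares mark Cdkn2a values given with no test. The 4 filled circles are all in the comparison of the knockout lines.

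The other p53 target genes were read from a list of 39, of which 38 were in the table and 37 were tested. With DAXX put back none was called, and 27 of 37 (73.0%) had a value below 0 against 52.0% of all genes, with a median of −0.18 against −0.02. At an unadjusted p under 0.05, 11 were lower and 0 higher, against 12.4% of all genes lower. DESeq2 called 2, when it called 531 of all genes. Wild-type and mutant H3.3 called none of 37 in the main fit, with medians of 0.12 and 0.07, and 6 and 3 genes had an unadjusted p under 0.05, against 13.3% and 16.9%. DESeq2 called 1 (Sfn) with wild-type H3.3 and 0 with the mutant, when it called 213 and 444 of all genes, and limma called none in either. Sfn, the checkpoint protein 14-3-3 sigma, was called higher with the mutant than with wild-type H3.3 (1.72 ± 0.29, adjusted p = 0.0467). It was measured at 34.7 and 33.8 CPM in H3.3 KO, 11.6 and 10.3 in H3.3 KO + WT, and 35.0 and 37.4 with the mutant, so the wild-type rescue stood apart from the other 2. The call was lost without any 1 library of the Daxx-/- + WT line or of the 3 H3.3 lines.

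Between the knockout lines 6 of the 37 were called, 4 lower and 2 higher in H3.3 KO, against 11.7% of all genes, with a median of −0.32 against −0.02. Those lower were Btg2 (−1.88 ± 0.30, adjusted p = 0.0039), an antiproliferative gene, Lrdd (−1.69 ± 0.25, adjusted p = 0.0030), the table's name for Pidd1, Slc19a2 (−1.31 ± 0.15, adjusted p = 0.0014), a thiamine transporter, and Aen (−1.10 ± 0.15, adjusted p = 0.0019), a nuclease. Those higher, named after their values were seen, were Ei24 (1.06 ± 0.18) and Fdxr (1.08 ± 0.28). Between the rescued lines 3 of 37 were called, against 8.45% of all genes. Lrdd was again lower (−1.46 ± 0.25, adjusted p = 0.0065), while Perp (1.93 ± 0.43, adjusted p = 0.0183) and the cell death gene Pmaip1 (2.32 ± 0.61, adjusted p = 0.0320) were higher in H3.3 KO + WT. Pmaip1 was at 13.4 and 68.9 CPM in Daxx-/-, 6.19 and 9.82 in Daxx-/- + WT, 61.3 and 79.2 in H3.3 KO and 40.4 and 39.5 in H3.3 KO + WT, with the Daxx-/- libraries far apart. The 3 calls between the rescued lines fell to 0 without Daxx-/- + WT replicate 1 or H3.3 KO + WT replicate 1, and to 1 without H3.3 KO + WT replicate 2.

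**Figure D4:**
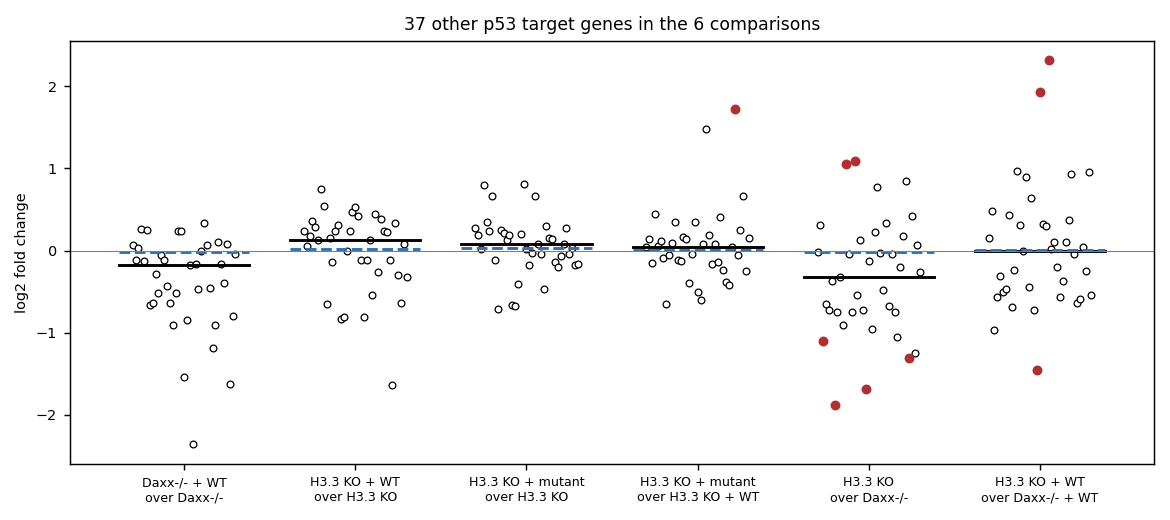
Log2 fold changes of the 37 other p53 target genes tested in 6 comparisons. Filled points passed an adjusted p under 0.05 and 2-fold, the solid bar is the median of the list and the dashed bar that of all genes tested, and 6 of the 37 were called between the knockout lines.

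Upstream of p53, none of 17 regulators and relatives tested was called in the DAXX or H3.3 rescue comparisons or between the H3.3 transgenes by edgeR, DESeq2 or limma. In edgeR 5, 2 and 1 had an unadjusted p under 0.05 with DAXX, wild-type H3.3 and mutant H3.3, against 21.8%, 13.3% and 16.9% of all genes. Between the H3.3 transgenes 1 did, against 12.3%. H3.3 KO against Daxx-/- called 4, against 11.7% of all genes, namely Trp73, a p53 relative (−1.58 ± 0.38), the damage kinase Atm (−1.17 ± 0.20), the checkpoint kinase Chek1 (1.12 ± 0.15) and the deacetylase Sirt1 (1.02 ± 0.25), with adjusted p from 0.0018 to 0.0196. Between the rescued lines Atm alone was called (−1.23 ± 0.20, adjusted p = 0.0056), against 8.45% of all genes.

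Among 18 other CDK inhibitors and members of the RB pathway, which the INK4 proteins act on, none was called with any transgene by edgeR. With DAXX, wild-type H3.3 and mutant H3.3, 1, 2 and 4 had an unadjusted p under 0.05, against 21.8%, 13.3% and 16.9% of all genes. DESeq2 called 2 with the mutant H3.3 (Ccnd1 and E2f2, named after their values were seen) and limma 1 (E2f2). Of all genes, DESeq2 called 444 there and the 2 limma fits 173 and 180. Between the knockout lines 4 were called, against 11.7% of all genes, with adjusted p from 0.0039 to 0.0111. Ccnd1, encoding cyclin D1 (−2.46 ± 0.40), and its partner Cdk6 (−1.73 ± 0.34) were lower in H3.3 KO, and the inhibitors Cdkn1b (1.25 ± 0.26) and Cdkn2d (1.03 ± 0.22) were higher. Between the rescued lines 6 were called, against 8.45% of all genes, the 4 largest changes being those of Ccnd1 (−2.69 ± 0.40), Cdk6 (−2.17 ± 0.35), Rb1 (1.81 ± 0.26) and Cdkn1b (1.43 ± 0.26). The CDK inhibitors Cdkn2b and Cdkn1a, by contrast, were called lower in H3.3 KO.

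Some markers of other cell types also differed between the lines. The primitive endoderm markers summed to 34.5 and 84.9 CPM in the Daxx-/- libraries and 156 and 217 CPM in H3.3 KO + WT, and 1 gene, Lama1, carried most of the sum, with 147 and 208 CPM in H3.3 KO + WT. Gata6, Sox17, Dab2 and Pdgfra had higher means in Daxx-/- than in H3.3 KO + WT, at 2.25 against 1.29, 2.22 against 1.19, 4.10 against 1.81 and 2.61 against 0.726 CPM. For each of them Daxx-/- replicate 2 was above replicate 1. For Gata6 and Sox17 the libraries of both lines overlapped, Daxx-/- replicate 1 being at 0.499 and 1.22 CPM. Gata4 was level, at 4.05 against 4.08 CPM. The fibroblast markers summed to 35.5 and 57.4 CPM in Daxx-/- and 11.9 to 27.9 CPM in the other 8 libraries. The fibroblast genes Col1a2, Col3a1, Lum, Dcn, Postn and Twist2 stayed under 1 CPM in all libraries, as did the defining endoderm genes Sox7 and Foxa2 and the trophoblast genes Cdx2 and Elf5. The other trophoblast genes were higher. Eomes lay between 6.44 and 23.6 CPM, and Krt7, Ascl2 and Hand1 reached 11.6, 9.59 and 1.39 CPM, each in Daxx-/- replicate 2. The 2 fibroblast markers called between the knockout lines went opposite ways, Thy1 lower in H3.3 KO (−2.11 ± 0.41, adjusted p = 0.0084) and Fbn1 higher (1.24 ± 0.28, adjusted p = 0.0143). Thy1 was at 23.5 and 36.0 CPM in Daxx-/- and at most 7.66 CPM in the H3.3 lines, and Fbn1 at 5.88 and 6.76 CPM in Daxx-/- and 13.8 and 16.1 CPM in H3.3 KO. The trophoblast gene Ascl2 was also called between the knockout lines, with means of 6.10 CPM in Daxx-/- and 0.786 CPM in H3.3 KO. Between the rescued lines 2 of the 10 stem cell markers, Klf4 and Tdgf1, were called higher in H3.3 KO + WT. Lama1 and Col1a1 were called higher there too, and Eomes lower. Of all genes, 11.7% were called between the knockout lines and 8.45% between the rescued lines. The part of these markers in the values of the 10 genes was not tested.

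By the pattern over the 10 libraries, the genes most like Cdkn2a among those tested were Hsbp1 (Pearson r = 0.985), Rpl18 (0.982), R3hdm1 (0.978), Polr2c (0.974) and Sdhc (0.972), on log2(CPM + 1) values. Of the other 9 genes described here, Phlda3 ranked 33 and Cdkn2b ranked 50 among the genes tested by the same measure. Rpl18 was at 1330 CPM in Daxx-/- and 949 CPM in H3.3 KO mESCs on average, so genes of small change shared the pattern with Cdkn2a, whose change was far larger.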

How the data were processed

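PolyA RNA from 10 libraries of 5 mESC lines was analysed, grouped by the genotype in the labels. The authors aligned reads with Bowtie and estimated expression with RSEM, on genome build mm9 as the submitters' processing notes list them. The table is named for TPM but was deposited as gene-level expected counts, with no scaling for library size or length. They were rounded to whole numbers, scaled with DESeq2-style (RLE) factors and tested with edgeR 4.0.16 in R 4.3.3 (quasi-likelihood test, all 10 libraries in 1 fit). Genes needed at least 1 CPM in 2 libraries, which left 13201, and p-values were adjusted by Benjamini-Hochberg over all of them. A call needed an adjusted p under 0.05 and a 2-fold change. CPM values are library-scaled counts and are not comparable between genes of different length. The test was tried on simulated data.

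The 10 genes and the other lists were chosen with earlier results of these data known. Every library value of the 10 genes was to be given, then from each list the genes called, at most 4 per comparison by size of change, the defining markers, and the 5 genes most correlated with Cdkn2a. Alternatives were TMM factors, other filters, each comparison alone, a replicate block, DESeq2 1.42.0, limma 3.58.1 on log2(CPM + 1) and log2(CPM + 0.1), and leaving out each library. The library kit is not described as keeping strand. Promoters came from RefSeq and gene models from GENCODE, both on GRCm38, and no coordinate was converted from mm9.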

Additional observations from a re-analysis of the deposited data

Results flagged for a closer look

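For 3 genes, Cdkn2a, Cdkn2b and Bbc3, both rescued libraries lay below both knockout libraries with DAXX and above them with wild-type H3.3. Of all genes tested, 24.7% were lower in this way with DAXX and 29.3% higher with wild-type H3.3. The share of all genes with both was not counted. The DAXX log2 fold change minus that of wild-type H3.3 was −2.33 for Cdkn2a, where the difference was not tested because the gene was chosen on the H3.3 change. It was −2.52 for Cdkn2b (edgeR adjusted p = 0.165) and −1.25 for Bbc3 (adjusted p = 0.294), neither of which passed. Against the mutant H3.3 the difference was −1.41 for Cdkn2a, again not tested, and −1.99 for Cdkn2b (adjusted p = 0.288).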

How the results depend on the processing

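With 2 libraries per line, counts near the threshold moved, as did the calls over all genes. With DAXX put back, 143 genes were called in the main fit and 233 with no filter on low values. The replicate block called 621, DESeq2 531 and the 2 limma fits 240 and 189. With DAXX put back, the members called rose from 0 to 1 (Cdkn1a) with no filter on low values, the replicate block, DESeq2 and both limma fits, and ranged from 0 to 2 when single libraries were left out. The other p53 target genes called there were 1 with the replicate block and 2 with DESeq2, and 0 to 7 without single libraries. With wild-type H3.3 the latter count was 1 (Sfn) with no filter, each comparison alone, the replicate block and DESeq2, and 0 to 1 without single libraries. Mutant against wild-type H3.3 gave 0 with a mean of at least 5 CPM, 2 with the comparison alone and 0 to 2 without single libraries. Between the knockout lines the members called ranged from 3 to 6 and the other targets from 4 to 9 without single libraries, and between the rescued lines the other targets from 0 to 4. For the DAXX change against the H3.3 changes the count was 1 with the replicate block, 3 with DESeq2 and 0 to 2 without single libraries. TMM factors changed none of these counts beyond 1.5 times.

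The labels share only replicate numbers, and the libraries were not treated as paired in the main fit. The correlations of replicate differences ran from 0.27 to 0.57 between the lines other than H3.3 KO. Between H3.3 KO and the other lines they ran from −0.04 to 0.28. With DAXX put back, 621 genes were called with the replicate block against 143 in the main fit. Cdkn1a was 1 of the 621 (edgeR adjusted p = 0.00568), so the DAXX calls depend on this choice. With the replicate block Cdkn2a also passed the adjusted p with DAXX (0.0354). Apart from the counts named for the block above, it changed no count of called members or other p53 target genes beyond 1.5 times. Over all genes it raised the calls elsewhere too, from 33 to 105 with wild-type H3.3 and from 104 to 461 with the mutant. Mutant against wild type rose from 68 to 234, and the DAXX minus wild-type H3.3 difference from 6 to 144.

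Of 1074 alternative log2 fold changes of single members, 18 changed sign, in each case when 1 library was left out and the value was near 0. With DAXX these were Trp53 (−0.25 to 0.70), Ccng1 (−0.45 to 0.11), Phlda3 (−0.29 to 0.0889) and Zmat3 (−0.19 to 0.0174). With wild-type H3.3 they were Cdkn1a (−0.0464 to 0.24) and Ccng1 (−0.0829 to 0.0494), and with the mutant Cdkn1a (−0.20 to 0.34), Mdm2 (−0.0475 to 0.21) and Zmat3 (−0.0051 to 0.14). For mutant against wild type they were Cdkn1a (−0.30 to 0.23), Trp53 (−0.34 to 0.0582) and Bbc3 (−0.51 to 0.13), and for the rescued lines Trp53 (−0.0423 to 0.27) and Mdm2 (−0.0091 to 0.36). The causes were not tested.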
